A study of Schizosaccharomyces pombe with 6 samples.

Results

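The genes described here encode subunits of the 3 nuclear RNA polymerases, of Mediator and of general transcription factors in fission yeast, *Schizosaccharomyces pombe*. They were chosen by name: a gene is a member when its symbol starts with rpa, rpb, rpc, med, taf, tfb, tfa, spt or sfc, followed by a number alone, and when its probe set is annotated to that gene and no other. Under the current gene symbols this gave 76 members out of 2897 genes with a named probe set. Under the older symbols of the array annotation the rule matched 71 probe sets. One of those, listed as taf1, belongs to the autophagy gene atg11 (log2 difference 0.26 between NaHS and untreated, adjusted p = 0.349) and was left out, and 6 genes with older names in that annotation were added, which are med1, med6, med10, med14, med18 and taf7. Each member had 1 probe set.

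Both groups of cultures were wild-type cells of the strain 972 h-. One group of 3 cultures received 50 µM NaHS, a salt that gives off hydrogen sulfide (H2S) in water, for 30 min at 30°C, and the other group of 3 cultures was left untreated. Total RNA of each culture was hybridised to its own Affymetrix Yeast Genome 2.0 array, and the question was which transcripts change when H2S is given. The methods of the paper state 3 biological repeats. The labels number the cultures 1 to 3 in each group, though every description also reads biological rep1.

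Separate RNA polymerases share the work of transcription in the nucleus. RNA polymerase I makes the large ribosomal RNA, RNA polymerase II makes messenger RNA, and RNA polymerase III makes transfer RNA and 5S ribosomal RNA. Each has large catalytic subunits of its own, while a set of small subunits is common to all of them and another pair is common to RNA polymerases I and III. TFIIIA and TFIIIC place RNA polymerase III on its genes. On messenger RNA genes TFIID and SAGA bring in the TATA-binding protein, TFIIE and TFIIH open the DNA, Mediator passes signals from activators to RNA polymerase II, and the Spt proteins help it through chromatin.

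The deposited values are log2 signals made by the array software MAS5, on which 1 unit stands for a factor of 2. The log2 ratio is the mean of the NaHS arrays minus that of the untreated arrays, with the limma standard error (SE). In all, 4966 probe sets were tested with limma, and 7.63% of them were called changed, 3.97% higher and 3.66% lower after NaHS (Benjamini-Hochberg adjusted p below 0.05). The medians of the tested probe sets lay between 9.49 and 9.58 in the 6 arrays, and those of the budding yeast probe sets on the same arrays between 0.01 and 0.40. The mean log2 signals of the members ran from 4.92 to 11.88, so that all 76 were above 3.67, the level that marks the top 1% of the budding yeast probe sets. Of genes typical of the M mating type that h- denotes, 6 had log2 signals from 2.35 to 11.25, and the P-type genes map2 and map3 were not absent, with signals from 5.08 to 7.37. The replicate 1 arrays stood apart from the others in both groups, and values without them are given for some genes. Since MAS5 scales each array by itself, a change of all RNA in a cell would not show in these values, and in such bulk samples fewer cells with a transcript and less of it per cell cannot be told apart.

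After NaHS, subunits of RNA polymerases I and III were lower in small steps, while those of RNA polymerase II, Mediator and TFIID lay on both sides of 0. Of the 76 members 3 (3.95%) passed the test, a smaller share than the 7.63% of all probe sets. The genes rpa12 and rpa49 fell, and tfa2 rose. The 18 genes with rpa and rpc symbols had a median log2 ratio of -0.28, with 17 of them below 0 and 2 called lower. The 37 genes with rpb, med and taf symbols had a median of -0.08, with 22 below 0 and 0 called by limma. Of these 37, 2 had an unadjusted p below 0.05, where 1115 of all 4966 tested probe sets did. SAM, as programmed here, called 0 of the 37. Over the whole array this SAM called fewer probe sets than the paper reports genes for its own. The 21 genes with sfc, tfb, tfa and spt symbols had a median of 0.02, with 1 called higher. The median of all tested probe sets was 0.01, with 47.4% below 0. The 3 calls depended on single arrays to different degrees. Without 1 array, rpa12 passed in 2 of the 6 fits, rpa49 in 1 and tfa2 in 0, with highest adjusted p of 0.0982, 0.118 and 0.197 in this order. The members that passed numbered 1 when the untreated array 1 was left out, 2 when the NaHS array 1 was, and 0 when any array numbered 2 or 3 was.

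**Figure D1:**
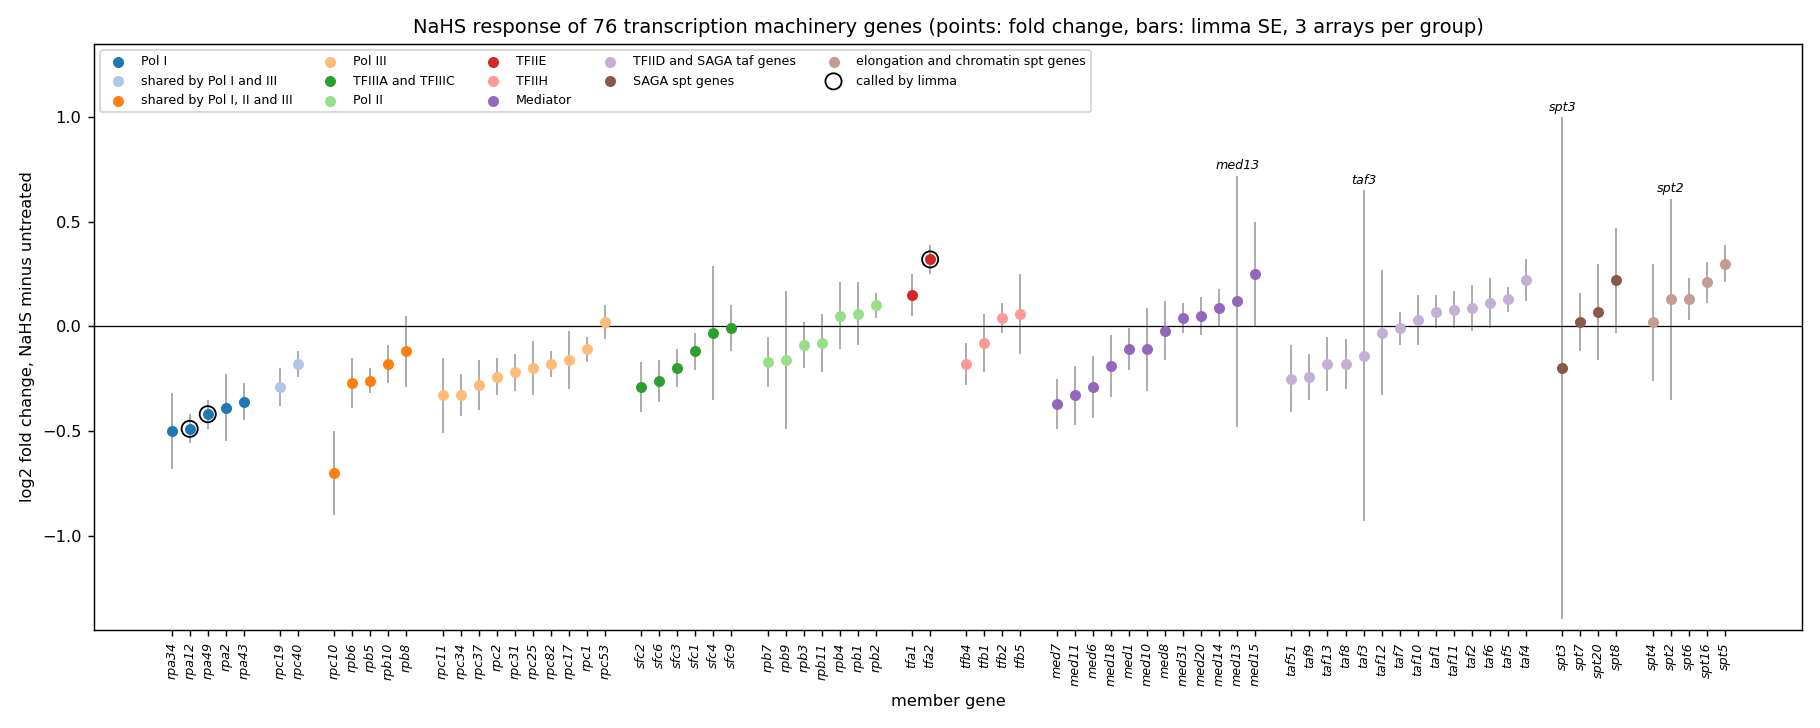
Log2 ratio, NaHS minus untreated, of each of the 76 members (x axis, by functional group), with the limma SE as bars and circles around the 3 called genes. RNA polymerase I subunits sit between -0.50 and -0.36 with none above 0, and the widest bars are those of spt3, taf3, med13 and spt2.

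The labels number the untreated and the NaHS cultures 1 to 3. Deviations from the group means correlated at 0.867, 0.578 and 0.598 between arrays of the same number. Across numbers 2 and 3 they correlated at 0.592 and 0.637, so that these could not be told apart as pairs. A fit with the number as a replicate block was run beside the one without. It called 16.4% of all probe sets lower and 16.3% higher. Of the members it called 23 lower and 5 higher, 28 where the fit without the block called 3. Among the rpa and rpc genes 15 of 18 were called lower and 0 higher, among the rpb, med and taf genes 6 of 37 lower and 2 higher, and among the other 21 members 2 lower and 3 higher. The share of rpa and rpc genes called lower, 15 of 18, lay far above the background of 16.4%. That of the rpb, med and taf genes, 6 of 37, was close to it, and their share called higher, 2 of 37, was below 16.3%. Their lower calls include rpb5, rpb6 and rpb10, which RNA polymerases I and III also contain. In 13.7% of all probe sets every NaHS array was below every untreated array, and in 14.6% every NaHS array was above. For the rpa and rpc genes this was so in 11 of 18 (61.1%) and in 0, for the rpb, med and taf genes in 3 and 2 of 37, and for the other members in 2 and 3 of 21. A fit without the block and without both replicate 1 arrays called 10 members, all lower. Of the members called with the block, the RNA polymerase I subunits, rpc10, rpc11, rpc34 and med7 passed in that fit, and the others did not.

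RNA polymerase I transcribes the repeated genes for the large ribosomal RNA, and 5 subunits that only this enzyme has are among the members. All 5 were lower after NaHS, 2 of them passed the test and all 5 passed with the replicate block. Of all tested probe sets 3.66% and 16.4% were called lower in these fits. The gene rpa12 encodes a small zinc-binding subunit that acts in RNA cleavage. Its log2 signal was 10.92, 10.95 and 10.96 in the untreated arrays and 10.36, 10.51 and 10.50 in the NaHS arrays. The groups stood well apart, and rpa12 fell with a log2 ratio of -0.49 (SE 0.07, adjusted p = 0.017), which left 0.714 of the untreated signal.

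The genes rpa49 and rpa34 encode partners that form a heterodimer on RNA polymerase I. For rpa49 the signal was 11.10, 11.06 and 11.05 without NaHS and 10.73, 10.64 and 10.59 with it. The groups did not overlap, and rpa49 fell with a log2 ratio of -0.42 (SE 0.07, adjusted p = 0.0235). For rpa34 the signal was 10.87, 11.24 and 11.28 without NaHS and 10.30, 10.80 and 10.79 with it. Each NaHS array of rpa34 was below the lowest untreated array, but replicate 1 was low in both groups, and the gene did not pass (log2 ratio -0.50, SE 0.18, adjusted p = 0.176). With the replicate block, in which that shift is taken out, the SE was 0.05 and the adjusted p = 0.00489.

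The genes rpa43 and rpa2 did not pass without the block and were called lower with it. For rpa43, whose product sits in the stalk of the enzyme and binds the initiation factor Rrn3, the signal was 11.47, 11.55 and 11.60 without NaHS and 11.04, 11.21 and 11.30 with it, without overlap (log2 ratio -0.36, adjusted p = 0.0751, with the block 0.00884). For rpa2, which encodes the second largest subunit, it was 11.02, 10.67 and 10.69 without NaHS and 10.67, 10.28 and 10.25 with it. Here the highest NaHS array reached the lowest untreated one, and the log2 ratio was -0.39 (adjusted p = 0.21, with the block 0.00657). With both replicate 1 arrays left out, all 5 genes were called lower, with log2 ratios from -0.46 to -0.32.

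**Figure D2:**
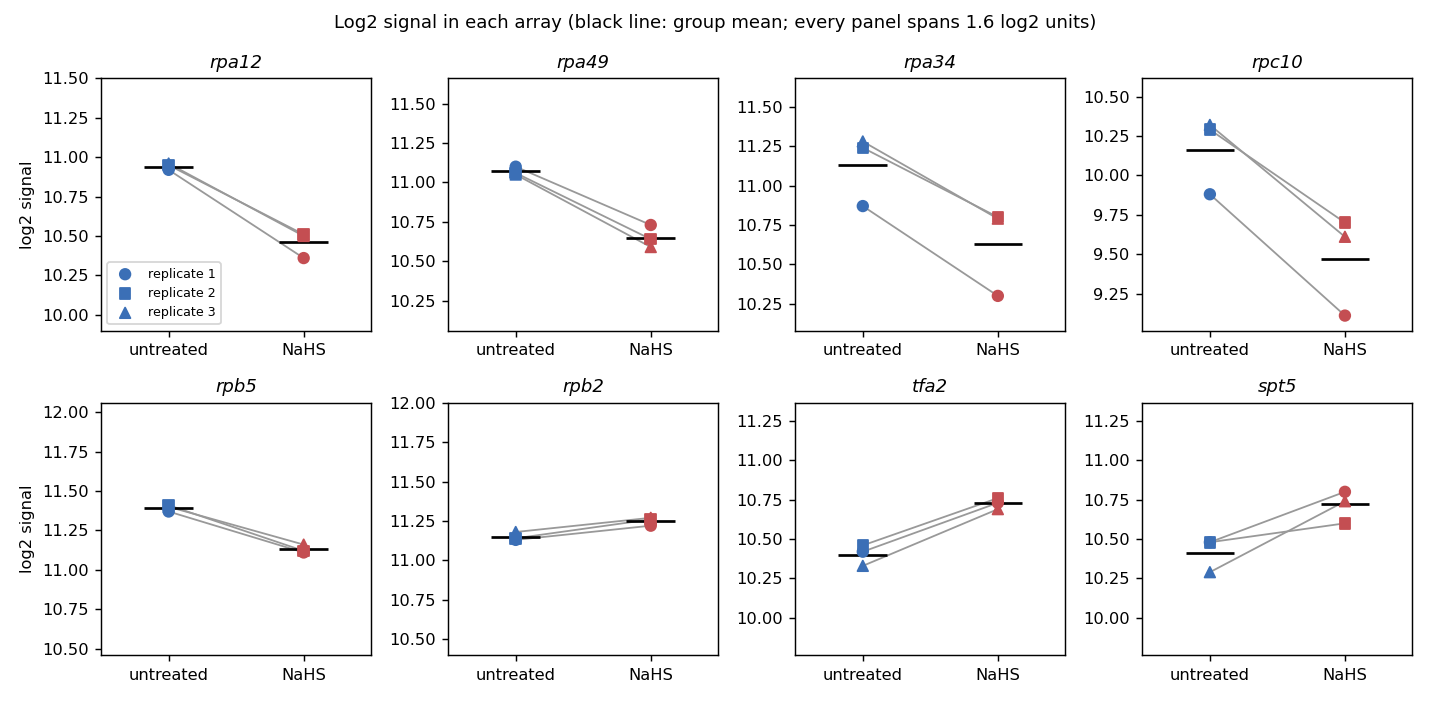
Log2 signal (y axis) of 8 members in each untreated (blue) and NaHS (red) array, with a grey line between arrays of the same replicate number and a black line for the group mean. In rpa12, rpa49, rpa34, rpc10 and rpb5 all 3 lines go down, in rpb2, tfa2 and spt5 all 3 go up, and in rpa34 and rpc10 replicate 1 lies lower in both groups.

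Of the 7 subunits shared between enzymes, 0 passed limma without the block, and SAM called 0. An unadjusted p below 0.05 was found for 4 of the 7 and for 1115 of all 4966 tested probe sets. With the block 6 of the 7 were called lower, against 16.4% of all tested probe sets. Of the 5 that all 3 polymerases contain (rpb5, rpb6, rpb8, rpb10 and rpc10), each had a log2 ratio below 0 and was lower in all 3 replicate pairs, and the median was -0.26. The difference farthest from 0 of any member was that of rpc10, also named rpb12, which encodes a small zinc-binding subunit. Its signal was 9.88, 10.29 and 10.32 without NaHS and 9.11, 9.70 and 9.61 with it. The groups did not overlap, but replicate 1 was low in both of them, and rpc10 did not pass (log2 ratio -0.70, SE 0.20, adjusted p = 0.0998). With the replicate block the SE was 0.05 and rpc10 was called lower (adjusted p = 0.00338), as it was with both replicate 1 arrays left out (log2 ratio -0.65, adjusted p = 0.0106).

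Among the others of this set, rpb5 encodes a subunit in the jaw of the enzyme. Its signal was 11.37, 11.41 and 11.40 without NaHS and 11.11, 11.12 and 11.16 with it, 2 narrow groups without overlap (log2 ratio -0.26, SE 0.06, adjusted p = 0.0632, with the block 0.014). The log2 ratio was -0.27 for rpb6 (adjusted p = 0.243, with the block 0.012) and -0.18 for rpb10 (adjusted p = 0.287, with the block 0.033). For rpb8 it was -0.12 and passed in neither fit (adjusted p = 0.798, with the block 0.146).

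A further pair, rpc19 and rpc40, is common to RNA polymerases I and III and takes the place that rpb11 and rpb3 have in RNA polymerase II. For rpc19 the signal was 11.69, 11.79 and 11.85 without NaHS and 11.35, 11.54 and 11.59 with it. For rpc40 it was 12.00, 11.95 and 11.95 without NaHS and 11.77, 11.77 and 11.82 with it. In neither gene did the groups overlap, and the log2 ratios were -0.29 and -0.18 (adjusted p = 0.142 and 0.16, with the block 0.0133 and 0.0391). Those of the counterparts rpb11 and rpb3 in RNA polymerase II were -0.08 and -0.09 (adjusted p = 0.857 and 0.748, with the block 0.288 and 0.207), and their groups overlapped. The difference between the pairs was not tested.

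RNA polymerase III has 10 subunits of its own among the members. Their median log2 ratio was -0.21, 9 were below 0, and 8 were lower in all 3 replicate pairs. Without the block 0 passed limma, and SAM called 0. An unadjusted p below 0.05 was found for 4 of the 10 and for 1115 of all 4966 tested probe sets. With the block 7 of the 10 were called lower, against 16.4% of all tested probe sets. The largest subunit, rpc1, had a signal of 10.12, 10.08 and 10.08 without NaHS and 10.02, 9.96 and 9.96 with it, a small step without overlap (log2 ratio -0.11, SE 0.06, adjusted p = 0.39, with the block 0.103). For the second largest subunit, rpc2, the log2 ratio was -0.24 (adjusted p = 0.208, with the block 0.0409). Larger steps were seen in rpc34, whose product takes part in initiation together with those of rpc31 and rpc82. Its signal was 10.14, 10.35 and 10.31 without NaHS and 9.81, 9.99 and 10.03 with it, without overlap (log2 ratio -0.33, SE 0.10, adjusted p = 0.111, with the block 0.00873). For rpc31 and rpc82 the groups did not overlap either, with log2 ratios of -0.22 and -0.18 (adjusted p = 0.208 and 0.166, with the block 0.028 and 0.0411).

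The gene rpc11 encodes the subunit for RNA cleavage and termination, a relative of rpa12. Its log2 ratio was -0.33 (SE 0.18, adjusted p = 0.372), and its groups overlapped, with replicate 1 low in both. It was called lower with the block (adjusted p = 0.012) and without both replicate 1 arrays (adjusted p = 0.0423). The products of rpc37 and rpc53 form a heterodimer. Their log2 ratios were -0.28 and 0.02 (adjusted p = 0.249 and 0.955), and with the block rpc37 was called lower (adjusted p = 0.0287) and rpc53 was not (adjusted p = 0.793). The stalk genes rpc17 and rpc25 had log2 ratios of -0.16 and -0.20 (adjusted p = 0.652 and 0.455, with the block 0.386 and 0.0307). In rpc17 the NaHS arrays spread widely, at 8.67, 8.86 and 8.32, against 8.71, 8.79 and 8.82 without NaHS, so that 1 array made most of its difference.

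TFIIIA, encoded by sfc2, binds the 5S ribosomal RNA gene, and TFIIIC, which contains the products of sfc1, sfc3, sfc4, sfc6 and sfc9, binds promoter elements inside transfer RNA genes. The 6 genes had log2 ratios between -0.29 and -0.01, 0 passed limma without the block, and SAM called 0. An unadjusted p below 0.05 was found for 2 of the 6 and for 1115 of all 4966 tested probe sets. With the block 2 of the 6 were called lower, against 16.4% of all tested probe sets. In sfc3 and sfc6 the groups did not overlap. For sfc2 the signal was 8.68, 8.95 and 8.91 without NaHS and 8.40, 8.72 and 8.55 with it, which overlapped in 1 array (log2 ratio -0.29, adjusted p = 0.213, with the block 0.0138). For sfc6 it was 9.76, 9.69 and 9.50 without NaHS and 9.48, 9.38 and 9.31 with it, without overlap (log2 ratio -0.26, adjusted p = 0.177, with the block 0.0193). For sfc9 the signals crossed, and the log2 ratio was -0.01 (adjusted p = 0.998).

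RNA polymerase II has 7 subunits of its own among the members. Their log2 ratios lay between -0.17 and 0.10 with a median of -0.08, 4 below and 3 above 0, and 0 passed limma in either fit (0 had an unadjusted p below 0.05 without the block). The gene rpb1 encodes the catalytic subunit with the long repeat tail that other factors bind. Its signal was 10.20, 9.90 and 9.80 without NaHS and 10.27, 9.90 and 9.91 with it, 2 groups that covered the same range (log2 ratio 0.06, SE 0.15, adjusted p = 0.918). For rpb2, the second largest subunit, it was 11.13, 11.14 and 11.18 without NaHS and 11.22, 11.26 and 11.27 with it. This was the subunit of RNA polymerase II without overlap between groups, and the step was small, a log2 ratio of 0.10 (SE 0.06, adjusted p = 0.448, with the block 0.138). The stalk genes rpb4 and rpb7 had log2 ratios of 0.05 and -0.17 (adjusted p = 0.945 and 0.484), and rpb9, a relative of rpa12 and rpc11, of -0.16 (SE 0.33, adjusted p = 0.885).

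TFIIE joins the complex of RNA polymerase II at the promoter and brings in TFIIH. Its subunit genes tfa1 and tfa2 were both higher in all 3 replicate pairs. For tfa2 the signal was 10.42, 10.46 and 10.33 without NaHS and 10.73, 10.76 and 10.69 with it. The groups did not overlap, and tfa2 rose 1.25-fold, a log2 ratio of 0.32 (SE 0.07, adjusted p = 0.0479). This call was close to the threshold and was lost when arrays were centred on their medians (adjusted p = 0.0509), with annotated fission yeast probe sets alone (0.0519), with all probe sets tested (0.053), without both replicate 1 arrays (0.0556) and by SAM, and was kept with the replicate block (adjusted p = 0.0087). For tfa1 the signal was 9.14, 9.41 and 9.36 without NaHS and 9.37, 9.56 and 9.44 with it, which overlapped (log2 ratio 0.15, adjusted p = 0.484). TFIIH unwinds the promoter. Its member genes tfb1, tfb2, tfb4 and tfb5 had log2 ratios between -0.18 and 0.06, with none called in either fit. The lowest adjusted p of these was that of tfb4 (0.393, with the block 0.0569). Further TFIIH core genes, ssl1, ptr8 and rad15, are no members and had log2 ratios of 0.32, 0.23 and 0.12. None of these passed without the block (adjusted p = 0.061, 0.369 and 0.761). With it ssl1 and ptr8 were called higher (adjusted p = 0.0111 and 0.0193) and rad15 was not (0.164).

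Mediator links DNA-bound activators to RNA polymerase II. Its 12 member genes had a median log2 ratio of -0.06, with 7 below 0 and 0 called by limma without the block or by SAM. An unadjusted p below 0.05 was found for 1 of the 12 and for 1115 of all 4966 tested probe sets. With the block 2 of the 12 were called lower and 1 higher, against 16.4% and 16.3% of all tested probe sets. For med7, of the middle module, the signal was 7.93, 7.88 and 7.83 without NaHS and 7.71, 7.51 and 7.30 with it. It was the Mediator gene whose groups did not overlap, with a log2 ratio of -0.37 (SE 0.12, adjusted p = 0.129, with the block 0.0231, without both replicate 1 arrays 0.0434). The head genes med11 and med6 had log2 ratios of -0.33 and -0.29 (adjusted p = 0.251 and 0.347), and med6 was called lower with the block (adjusted p = 0.0351). In the other direction, med15, of the tail that activators bind, had 9.05, 8.48 and 8.47 without NaHS and 9.37, 8.70 and 8.67 with it. Each of its NaHS arrays was above the untreated array of the same number, while the groups overlapped (log2 ratio 0.25, SE 0.25, adjusted p = 0.685, with the block 0.0225). For med14, the backbone of the complex, the log2 ratio was 0.09 (adjusted p = 0.692), and for med18 of the head it was -0.19 (adjusted p = 0.589).

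TFIID recognises promoters, and several of its taf subunits are also part of the coactivator SAGA. The 14 taf genes had a median log2 ratio of 0.01, 7 below and 7 above 0, and 0 passed limma without the block (0 had an unadjusted p below 0.05, and SAM called 0). With the block taf4 was called higher and taf9 lower, where 16.3% and 16.4% of all tested probe sets were. For taf4 the signal was 9.42, 9.64 and 9.59 without NaHS and 9.64, 9.89 and 9.77 with it (log2 ratio 0.22, adjusted p = 0.281, with the block 0.0231). For taf9, which carries a histone fold, it was 10.70, 10.95 and 10.92 without NaHS and 10.44, 10.71 and 10.69 with it (log2 ratio -0.24, adjusted p = 0.29, with the block 0.0165). The differences of both genes kept their opposite signs in all 3 replicate pairs. The scaffold gene taf5 had 10.56, 10.56 and 10.54 without NaHS and 10.66, 10.65 and 10.73 with it, the taf gene without overlap (log2 ratio 0.13, adjusted p = 0.324). Its paralogue taf51, named taf73 on the array, had a log2 ratio of -0.25 (adjusted p = 0.462). For taf1, the largest subunit, named taf111 on the array, it was 0.07 (adjusted p = 0.736).

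The spt genes fall into those of SAGA and those that act on elongation and chromatin. Of the SAGA genes, spt7, spt8 and spt20 had log2 ratios of 0.02, 0.22 and 0.07, and none passed in either fit. All 5 genes of elongation and chromatin were above 0, with a median of 0.13, where 47.4% of all tested probe sets were below 0. With both replicate 1 arrays left out, spt4 was below 0 (log2 ratio -0.07). The gene spt5 encodes the subunit of the elongation factor DSIF that binds the polymerase. Its signal was 10.48, 10.48 and 10.29 without NaHS and 10.80, 10.60 and 10.74 with it, without overlap (log2 ratio 0.30, SE 0.09, adjusted p = 0.127, with the block 0.0449). Its partner spt4 had a log2 ratio of 0.02 (SE 0.28, adjusted p = 0.998). For spt16, of the histone chaperone FACT, the signal was 10.12, 9.91 and 10.01 without NaHS and 10.37, 10.17 and 10.14 with it, without overlap (log2 ratio 0.21, adjusted p = 0.283, with the block 0.033). For spt6, another histone chaperone, the log2 ratio was 0.13 (adjusted p = 0.556, with the block 0.164).

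The size of the step was followed within each replicate number, with the limit that numbers 2 and 3 could not be told apart as pairs. In 30.2% of all tested probe sets the NaHS array was below the untreated array of the same number in all 3 pairs, and in 33.3% it was above. For the rpa and rpc genes it was below in 16 of 18 and above in 0, for the rpb, med and taf genes in 16 and 6 of 37, and for the other members in 5 and 7 of 21. When the shared rpb subunits are put together with the rpa and rpc genes, 20 of these 22 subunits of RNA polymerases I and III were below in all 3 pairs, and the exceptions were rpc17 and rpc53. The median difference of the 5 RNA polymerase I subunits was -0.43, -0.42 and -0.46 in pairs 1, 2 and 3. That of the 5 subunits common to all polymerases was -0.25, -0.27 and -0.24, and that of the 10 RNA polymerase III subunits was -0.20, -0.16 and -0.28. For Mediator it was 0.01, 0.00 and -0.13, so that the sign depended on the pair.

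**Figure D3:**
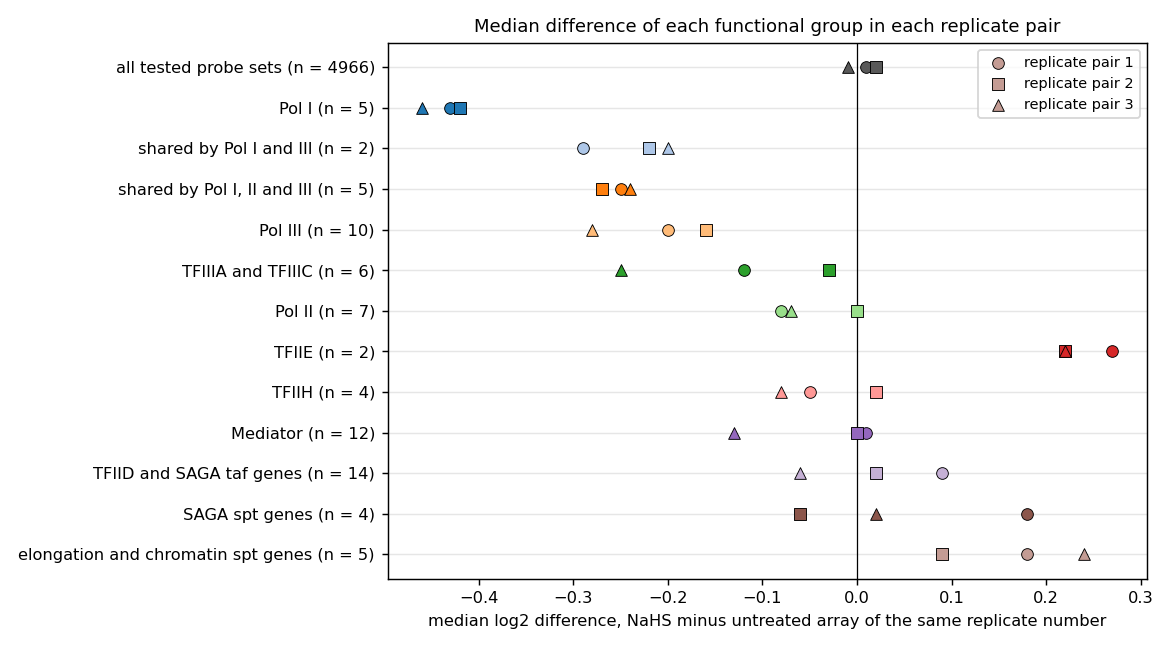
Median log2 difference (x axis), NaHS minus untreated array of the same replicate number, for each functional group of members and for all tested probe sets, with 1 symbol for each of the 3 replicate pairs. RNA polymerase I lies between -0.46 and -0.42 in every pair, whereas Mediator, TFIIH and the taf and spt genes of TFIID and SAGA lie on both sides of 0.

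Many members varied more between replicates than with NaHS. Over all 76 members, the difference of replicate 1 from the mean of replicates 2 and 3 correlated at 0.98 between the groups (0.87 over all tested probe sets). For sfc4 it was 0.80 in the untreated and 0.83 in the NaHS arrays, against a log2 ratio of -0.03. In 4 of the 76 members (5.26%), as in 2.94% of all tested probe sets, replicate 1 differed by over 2-fold from the mean of replicates 2 and 3 in both groups and in the same direction. These were spt3, taf3, med13 and spt2, all higher in replicate 1. For spt3, which encodes a subunit of SAGA that handles the TATA-binding protein, the signal was 6.92, 4.15 and 3.98 without NaHS and 7.07, 3.60 and 3.80 with it. The offset of replicate 1 was 2.86 in the untreated and 3.36 in the NaHS arrays, against a log2 ratio of -0.20 (SE 1.20, adjusted p = 0.98). For taf3 it was 1.70 and 2.34, for med13, of the kinase module of Mediator, 1.40 and 1.65, and for spt2, a histone-binding protein, 1.23 and 1.21. Their log2 ratios were -0.14, 0.12 and 0.13 (adjusted p = 0.977, 0.972 and 0.949). With the replicate block, which takes the offset out, the SE was 0.14 for spt3, 0.15 for taf3, 0.08 for med13 and 0.05 for spt2, and none of these genes passed (adjusted p = 0.341, 0.535, 0.304 and 0.14). With both replicate 1 arrays left out, taf3 had a log2 ratio of -0.35 (adjusted p = 0.0358). Among the 5 subunits of RNA polymerase I, 0 had such an offset, as had 0 of the 10 of RNA polymerase III and 0 of the 7 of RNA polymerase II.

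**Figure D4:**
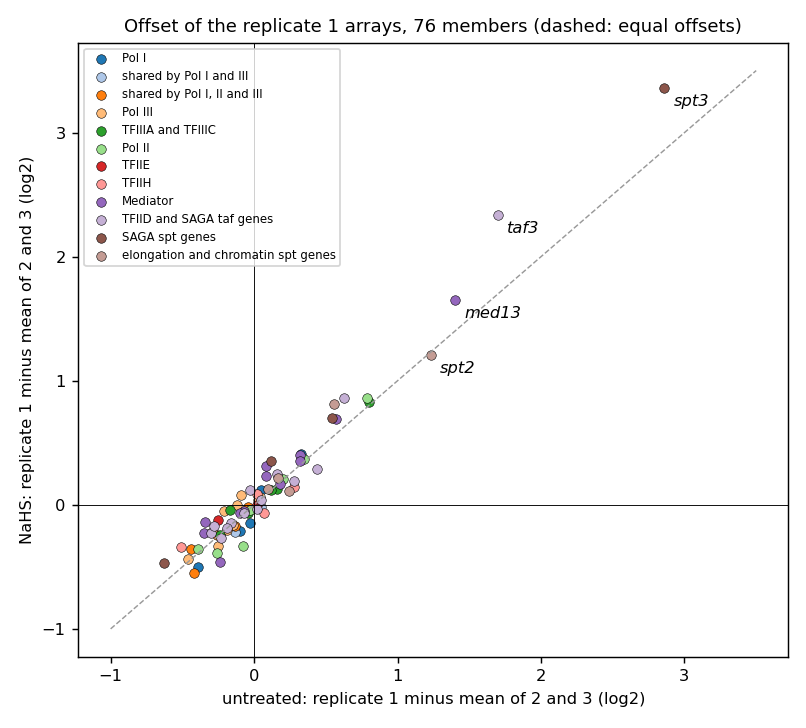
Offset of the replicate 1 array from the mean of replicates 2 and 3 in the untreated (x axis, log2) and the NaHS (y axis, log2) group, with 1 point for each of the 76 members, coloured by functional group, and a dashed line for equal offsets. The points follow the dashed line, and spt3, taf3, med13 and spt2 lie beyond 1 on both axes.

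The other parts of the transcription machinery were read from a list of 65 gene names, of which 49 were measured and are no members. Of these 49 genes 2 (4.08%) fell and 0 rose, a smaller share than the 7.63% called of all tested probe sets. With the replicate block 18 were called, 8 of 49 lower and 10 of 49 higher, against 16.4% and 16.3% of all tested probe sets. The median log2 ratio of the list was 0.00. The list includes elf1, which in this species is an ATPase gene of another function, and which did not pass without the block (adjusted p = 0.0684). The genes that fell were nuc1, for the largest subunit of RNA polymerase I, and lsg1 (ctk3), for a subunit of a kinase of the RNA polymerase II tail. For nuc1 the signal was 11.65, 11.65 and 11.60 without NaHS and 11.33, 11.28 and 11.32 with it, 2 tight groups (log2 ratio -0.33, SE 0.06, adjusted p = 0.0344). For lsg1 the log2 ratio was -0.36 (adjusted p = 0.0388). Neither passed in any of the 6 fits that leave out 1 array. For ker1, a further RNA polymerase I subunit, and rrn3, its initiation factor, the groups did not overlap, with log2 ratios of -0.58 and -0.34 (adjusted p = 0.107 and 0.0525, with the block 0.00617 and 0.00985). Other factors of RNA polymerase I on the list lay nearer to 0, with log2 ratios of -0.10 for rrn7, -0.09 for rrn11, 0.02 for rrn5 and 0.12 for spp27, and none of them passed in either fit. The RNA polymerase III factors brf1, bdp1 and maf1 had log2 ratios of -0.11, -0.06 and 0.00. They did not pass either (adjusted p = 0.73, 0.857 and 0.998, with the block 0.315, 0.527 and 0.983). The highest log2 ratio of the list, 0.54, was that of eaf1, mcs6 and ell1, which did not pass without the block (adjusted p = 0.156, 0.217 and 0.245) and were called higher with it (adjusted p = 0.0038, 0.00906 and 0.00661). The products of ell1 and eaf1 act in elongation by RNA polymerase II, and mcs6 encodes the kinase of TFIIH. The TATA-binding protein gene tbp1, which serves all 3 polymerases, had a log2 ratio of 0.07 (adjusted p = 0.767).

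Lists of genes near the members in function were set beside them by symbol. The ribosome biogenesis list was picked by symbol prefixes alone (utp, nop, rrp, nog, nsa, mak, cic, ebp, brx, imp and rrs, with a number). The function of each gene was not checked, so genes of other function may be in it. Its 29 genes had a median log2 ratio of -0.33, with 24 below 0. Of these 29, 7 were called lower (24.1%, against 3.66% of all tested probe sets) and 0 higher. In 17 (58.6%, against 13.7%) every NaHS array was below every untreated array. The 54 genes of the splicing list, also picked by symbol, had a median of 0.01, with 23 below 0. Of these 54, 1 was called lower and 0 higher (1.85% called, against 7.63% of all tested probe sets). In 2 (3.7%) the NaHS arrays were all lower without overlap and in 5 (9.26%) all higher, against 13.7% and 14.6%. By its median the rpa and rpc set (-0.28) lay nearer to the ribosome biogenesis list. The rpb, med and taf set (-0.08) lay nearer to the splicing list and to all tested probe sets (0.01). In the ribosome biogenesis list 21 were called with the replicate block, 15 when both arrays numbered 1 were left out and 0 by SAM. Leaving out the untreated arrays 1, 2 and 3 in turn gave 3, 1 and 0 calls, and leaving out the NaHS arrays 4, 2 and 2. In the splicing list 8 of 54 were called with the block, 5 higher and 3 lower, against 16.3% and 16.4% of all tested probe sets. SAM called 0 of this list. Its 1 call without the block was lost when the untreated array 2 or 3 or the NaHS array 3 was left out. These lists were described and not tested against each other.

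**Figure D5:**
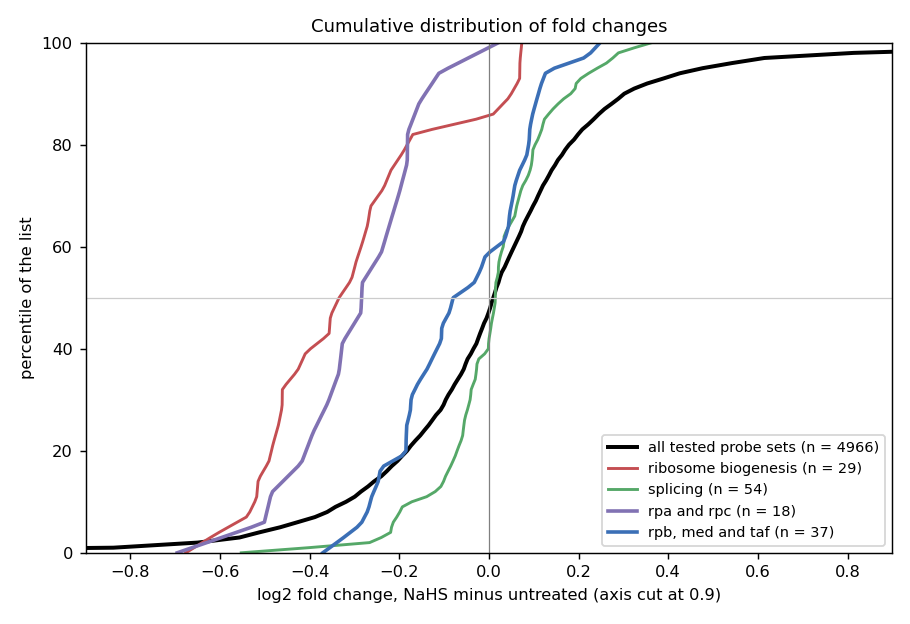
Cumulative distribution of log2 ratios (x axis, NaHS minus untreated) against the percentile of each list (y axis), for all 4966 tested probe sets, the 18 rpa and rpc genes, the 37 rpb, med and taf genes, and the ribosome biogenesis (29 genes) and splicing (54 genes) lists, both picked by symbol. The rpa and rpc curve crosses the 50th percentile at -0.28 and the curve of all probe sets at 0.01.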

How the data were processed

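The authors' array service made the deposited log2 signals with MAS5, which scales each array, and the sources used here do not state its version or target. Blank cells, none of them in members, were set to 0. Tested were 2937 probe sets annotated to *S. pombe* and 2029 unlisted ones with a mean above 3.67, the 99th percentile of 2601 *S. cerevisiae* probe sets. Symbols were brought up to date by gene ID in the RefSeq table, and 2914 probe sets had 1 *S. pombe* symbol. The 2 groups of 3 arrays were compared with limma 3.58.1 (R 4.3.3), two-sided, without a block, with the Benjamini-Hochberg adjustment over all 4966 probe sets. Deviations from group means correlated at 0.867, 0.578 and 0.598 between arrays that the labels number as experiments 1, 2 and 3, each above 0.1, so the numbers were taken as pairs. Across numbers 2 and 3 the correlation was 0.592 and 0.637, so that for these the check cannot tell pairs apart. Alternatives were this block, other normalizations and filters, arrays left out, and SAM. SAM, the test named in the methods, was programmed with all 20 label arrangements (s0 0.426). It called 149 probe sets, fewer than the genes the paper reports for its own SAM. Its counts of 0 are therefore not results of the authors' SAM.

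Genes were named by a rule: called members, the 10 largest rises and decreases, shared and largest subunits, and those with the highest and lowest mean of each prefix. To complete a group, rpb3, rpb4, rpb7, rpb11, rpc25, rpc31, rpc37, rpc53, rpc82, sfc2, sfc6, med6, med14, taf1, taf51, spt4, spt7, spt20 and, outside the members, ker1, rrn3, rrn5, rrn7, rrn11, spp27, brf1, bdp1, maf1, ssl1, ptr8, rad15, eaf1, ell1, mcs6, tbp1 and elf1 were named after their values were seen. The members, lists and tests were chosen with earlier results of these data known. Python 3.11.15 made tables and figures. With 3 arrays a group, precision is low.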

Additional observations from a re-analysis of the deposited data

How the results depend on the processing

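The number of called probe sets, 379, was 1622 with the replicate block, 169 with annotated probe sets alone, 149 by SAM, 710 without both replicate 1 arrays (added after seeing the data) and 95 to 224 without 1 array. Called members, 3, were 28 with the block, 5 with quantile normalization or an intensity trend, 0 by SAM, 10 without both replicate 1 arrays and 0 to 2 without 1 array. For rpa and rpc genes, 2, these were 15 with the block, 0 by SAM, 8 without both replicate 1 arrays and 0 to 2 without 1 array. For rpb, med and taf genes, 0, they were 8 with the block, 2 with quantile normalization, 1 with all probe sets or the trend and 2 without both replicate 1 arrays. For sfc, tfb, tfa and spt genes, 1, they were 5 with the block and 0 with median centring, annotated probe sets alone, all probe sets, SAM, both replicate 1 arrays left out and each array left out. For the other machinery, 2, they were 18 with the block, 4 with quantile normalization, 1 with all probe sets, 5 with the trend, 0 by SAM, 9 without both replicate 1 arrays and 0 without any 1 array. The median of rpa and rpc genes was -0.32 to -0.21 without 1 array, and that of rpb, med and taf genes -0.11 to 0.01. With 1 array left out, log2 fold changes took both signs in 8 of the 41 genes of the naming rule, none of them called: med13 (-0.43 to 0.58), rpb1 (-0.06 to 0.18), rpb9 (-0.44 to 0.10), sfc9 (-0.08 to 0.10), spt2 (-0.27 to 0.54), spt3 (-1.32 to 0.76), spt8 (-0.02 to 0.39) and taf3 (-0.92 to 0.43). Of 695 values of these 41 genes under alternatives, 623 kept direction and side of the threshold. A limit of 6 on the mean gave no value for spt3 and taf3. The cause was not tested.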
